A study of Mus musculus with 6 samples.

Results

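The genes described here are Nfe2l2, which encodes the transcription factor NRF2, its inhibitor gene Keap1, and 8 genes of antioxidant enzymes: Nqo1, Hmox1, Gclc, Gclm, Gsr, Txnrd1, Srxn1 and Gpx4. They were taken by name and matched by mouse symbol, and each matched 1 of the 41388 Ensembl gene identifiers in the files. RNA-seq counts per gene were taken from KP2, a pancreatic cancer line made from a KPC mouse (a genetically engineered model of pancreatic cancer) on the C57BL/6J strain. The groups were Irak4 knockout with rescue (KO with rescue), Irak4 knockout (KO) and wild type, with 2 libraries each. IRAK4 is a kinase that acts just below the Toll-like receptors and the interleukin-1 receptor. The knockout was made by infection with lentiviral CRISPR vectors carrying guides against Irak4, and all cells were kept in serum-containing medium and had been passaged fewer than 10 times. What was put back for the rescue is not described in the labels, nor whether wild-type cells carried an empty vector or whether the KO cells were 1 clone or a pool. Separate cultures are not stated for the replicates either, so the spread behind each p-value is that of these libraries and may be technical.

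NRF2 is a transcription factor that is held at low levels by KEAP1, an adaptor that brings it to a CUL3 ubiquitin ligase for destruction. Oxidants and electrophiles modify cysteines of KEAP1, NRF2 then accumulates, pairs with small MAF proteins and binds antioxidant response elements in genes for glutathione synthesis, thioredoxin reduction, NADPH supply and iron handling. Much of this control acts on the protein, which mRNA counts do not measure. BACH1, a repressor that haem displaces, competes for the same elements and holds down Hmox1 in particular.

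The libraries held 7605328 to 11505983 counts, and mitochondrial genes took 1.86% and 1.30% of them in the KO with rescue, 1.97% and 2.33% in the KO and 1.39% and 1.65% in wild type. The KO libraries were the highest, and the part of this share in the results below was not tested. Irak4 itself had 491 and 211 normalised CPM in the KO with rescue, 20.4 and 21.7 in the KO and 37.8 and 37.6 in wild type. Normalised CPM here are CPM over a library size that was scaled by edgeR's TMM method. The KO libraries lay below the wild-type libraries, but the log2 fold change of -0.84 (SE 0.33) did not pass the test (edgeR adjusted p = 0.057) and says nothing of the protein. That SE uses a spread shared by all groups. The libraries of the KO with rescue, at 491 and 211, differed from each other more than those of the KO or of wild type did. Of 8 epithelial and ductal markers, Krt8, Krt18 and Krt19 were at 1137 CPM or more in all 6 libraries, and Epcam was below 1 CPM in all of them. The summed markers ranged from 4756 to 5526 CPM in the KO with rescue, from 3998 to 4132 in the KO and from 6438 to 6629 in wild type. Krt8, Krt18, Krt19 and Sox9 were higher in both libraries of the KO with rescue than in both KO libraries. Cdh1 and Muc1 were lower in both. Cdh1 had 142 and 96.4 CPM in the KO with rescue, 183 and 244 in the KO and 344 and 379 in wild type. Krt7 was at 0.13 CPM or less in the KO with rescue and the KO, and at 1.69 and 2.26 in wild type. Among immune cell markers, Cd68 was at 3.83 to 4.59 CPM over the 6 libraries, Ptprc was below 1 CPM in every library, and Lyz2 and Cd3e were at 0. The 6 fibroblast markers summed to 18.6 to 23.5 CPM in the KO with rescue, 10.4 to 15.4 in the KO and 12.7 to 12.8 in wild type. Most of that was Col1a1, Pdgfrb and Acta2 were below 2 CPM, and Dcn and Lum were at 0. The 5 acinar markers summed to 3.42 to 3.70 CPM in the KO with rescue, 3.91 to 4.32 in the KO and 1.80 to 1.88 in wild type, with 3 of them at 0, and all 4 islet markers were at 0. The 4 endothelial markers summed to 14.7 to 38.3 CPM in the KO with rescue, 16.6 to 32.2 in the KO and 4.39 to 5.18 in wild type. Cdh5 made up nearly all of that sum outside wild type, and Pecam1 and Tek stayed below 1 CPM. Kdr went the other way, at 0 and 0.13 CPM in the KO with rescue, 0.09 and 0.12 in the KO and 1.46 and 1.60 in wild type. The part of the markers that differed between groups in the results below was not tested. In bulk RNA, fewer cells of a type and less RNA per cell cannot be told apart.

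The antioxidant response element core was searched for in the promoters of these genes, because NRF2 binds it. The core was taken as TGACNNNGC, on both strands, in the 250 bases before each RefSeq transcript start (GRCm38.p6). It was found before at least 1 start of 3 of the 7 genes that had an entry, and in 3 of their 12 promoters, against 10.2% of all 32851 promoters of that length and 11.5% of 27025 genes. The 3 promoters with a core are shown. All 3 genes passed a test of expression below, but so did Keap1, which had no core. Gclc and Hmox1 passed too and were not searched. A link between the core and expression was not tested. Capitals mark the core, which reads as its reverse complement in Gclm and Txnrd1. The promoters shown lie at chr2:75704664-75704913 (minus strand) for Nfe2l2, chr3:122245307-122245556 (plus strand) for Gclm and chr10:82858956-82859205 (plus strand) for Txnrd1.
Nfe2l2: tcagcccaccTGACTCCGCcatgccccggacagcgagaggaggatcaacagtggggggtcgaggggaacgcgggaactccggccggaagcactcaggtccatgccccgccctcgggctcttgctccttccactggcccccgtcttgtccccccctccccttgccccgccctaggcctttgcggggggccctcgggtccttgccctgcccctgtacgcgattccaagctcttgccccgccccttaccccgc
Gclm: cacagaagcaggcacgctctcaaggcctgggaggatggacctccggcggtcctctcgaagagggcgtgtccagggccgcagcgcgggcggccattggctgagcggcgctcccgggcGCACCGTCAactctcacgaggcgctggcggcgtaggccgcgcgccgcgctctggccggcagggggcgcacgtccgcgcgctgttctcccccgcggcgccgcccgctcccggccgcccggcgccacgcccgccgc
Txnrd1: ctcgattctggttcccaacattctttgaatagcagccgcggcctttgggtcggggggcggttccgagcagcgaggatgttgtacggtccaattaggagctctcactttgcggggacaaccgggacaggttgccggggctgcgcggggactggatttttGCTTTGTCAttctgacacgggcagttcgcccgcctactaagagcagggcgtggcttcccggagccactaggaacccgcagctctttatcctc
The first base of the core lay 240 bases before the start in Nfe2l2, 134 in Gclm and 92 in Txnrd1. The Txnrd1 promoter shown is that of the start nearest the gene's first base in the files, and the promoters of its other 2 RefSeq starts held no core. Keap1, Nqo1, Srxn1 and Gpx4 had no match in this window, which says only that these letters are not there. Hmox1, Gclc and Gsr were not searched.

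Per length, 9 of the 10 genes were well expressed and Nqo1 was close to 0. In the authors' RPKM, which divides by gene length and so allows genes to be compared, Gsr stood highest in wild type at 75.1 ± 3.26 (SD, n = 2), followed by Hmox1 at 57.4 ± 1.92, Txnrd1 at 45.2 ± 0.88 and Nfe2l2 at 39.4 ± 2.72. Gclc at 26.3 ± 1.40 and Gpx4 at 24.3 ± 1.82 overlapped between libraries. Srxn1 at 15.2 ± 0.19 and Gclm at 15.2 ± 0.88 overlapped too, and Keap1 was at 13.1 ± 0.76. In the KO the order was Gsr at 85.7 ± 3.97, Txnrd1 at 61.6 ± 1.76, Gclc at 51.4 ± 11.9 and Hmox1 at 47.3 ± 7.73, where the libraries of Gclc and Hmox1 overlapped. In the KO with rescue Gsr at 73.6 ± 3.30 and Hmox1 at 70.2 ± 12.5 overlapped.

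**Figure D1:**
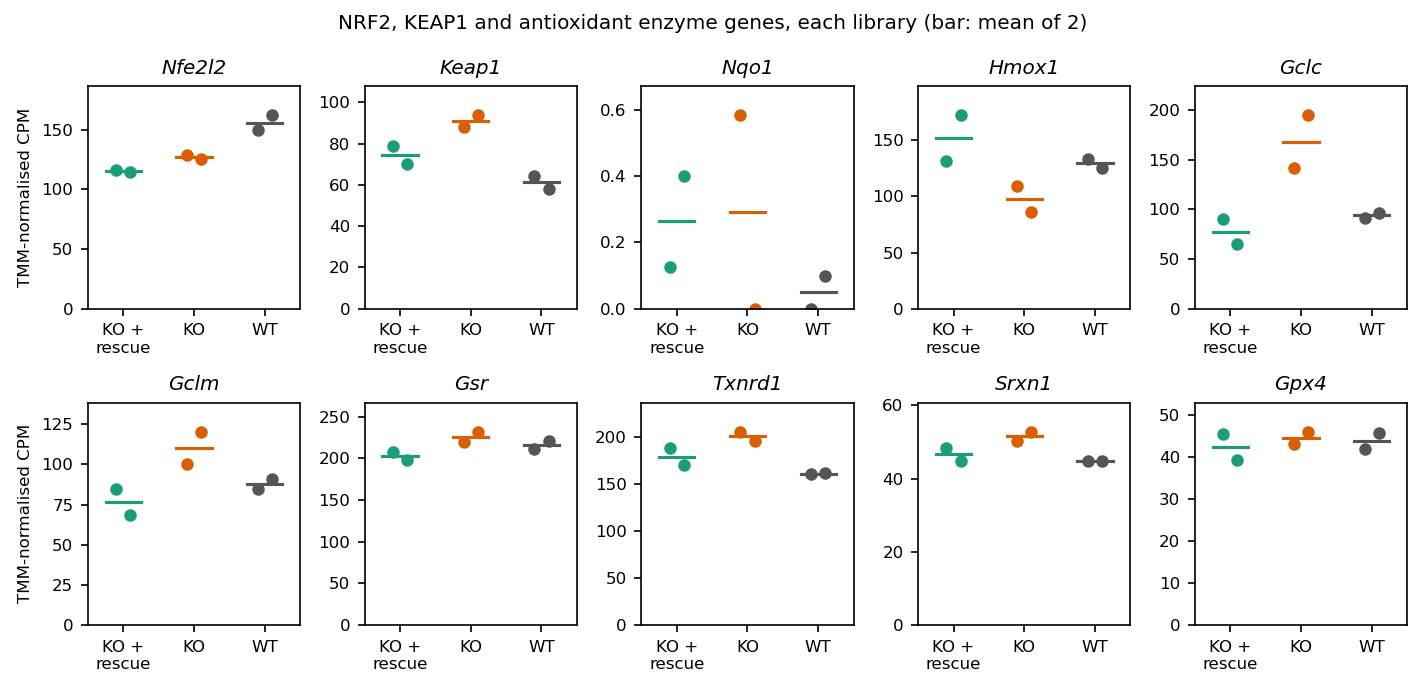
TMM-normalised CPM (y axis, from 0, scaled for each gene) of the 10 genes in each of the 6 libraries (points), with the mean of the 2 libraries of each group (bars). Gclc was higher in both KO libraries than in the other 4, Hmox1 was lower in both, and Nqo1 stayed below 1 CPM in every library.

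Nqo1 encodes a quinone reductase and is a standard readout of NRF2 activity in mouse and human cells. It had 1 and 3 counts in the KO with rescue, 7 and 0 in the KO and 0 and 1 in wild type (ENSMUSG00000003849, chromosome 8, 107388225 to 107403206, minus strand). The largest of these, 7 counts, came to 0.61 CPM of the library total, with an exact Poisson 95% interval of 0.24 to 1.25 CPM that covers counting error only. By the same kind of interval, a count of 0 allows up to 0.44 CPM in the second KO library and 0.42 CPM in the first wild-type library. Taking 3 counts as the limit instead gave 0.36 and 0.34 CPM. Nqo1 fell below the filter on low counts and was not tested, and at this depth no difference between the groups was detectable. No exon of another gene in the files overlaps its exons.

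Between the KO and wild type, 4 of the 9 tested genes were higher, 2 were lower and 3 did not pass. Keap1, Gclc, Gclm and Txnrd1 rose, and Nfe2l2 and Hmox1 fell, all by less than 2-fold. Of all 12339 genes tested 46.8% were called in this comparison (edgeR adjusted p under 0.05), 23.2% higher and 23.5% lower. The libraries of 7 of the 9 genes did not overlap, 5 with the KO higher and 2 with it lower, against 76.6% of all genes, 39.1% higher and 37.6% lower. The median log2 fold change of the 9 genes was 0.20, against 0.01 for all genes tested. No member was called in any comparison when the test asked for a change beyond 1.5-fold. Of all genes 11.4% then passed in the KO against wild type, 0.308% in the KO with rescue against the KO and 4.47% in the KO with rescue against wild type. The 3 comparisons share libraries and are not independent of each other.

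The factor and its inhibitor moved in opposite directions in the KO. Nfe2l2 (ENSMUSG00000015839, chromosome 2, 75675513 to 75704641, minus strand) had 116 and 115 normalised CPM in the KO with rescue, 129 and 125 in the KO and 149.7 and 162 in wild type. Both KO libraries lay below both wild-type libraries, and both libraries of the KO with rescue lay below the KO. Its log2 fold change in the KO against wild type was -0.30 (SE 0.08, edgeR adjusted p = 0.011). Against wild type it also fell in the KO with rescue, by 0.43 on the log2 scale (SE 0.08, edgeR adjusted p = 0.0033), and it was the single member called in that comparison, where 22.2% of all genes were. The KO with rescue against the KO gave -0.14 (SE 0.08), which did not pass (edgeR adjusted p = 0.29). Nfe2l2 was not called in the KO against wild type without the second wild-type library (-0.24), without the second KO library (-0.28) or with total-count scaling (-0.17). In the KO with rescue against wild type it was not called without the second wild-type library (-0.37).

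Keap1 (ENSMUSG00000003308, chromosome 9, 21229730 to 21239332, minus strand) had 78.7 and 70.1 normalised CPM in the KO with rescue, 88.0 and 93.8 in the KO and 64.1 and 58.1 in wild type. The groups did not overlap, with the KO highest and the KO with rescue between the other two. It rose 1.49-fold in the KO against wild type (log2 fold change 0.57, SE 0.10, edgeR adjusted p = 5.4e-04), and it was called in each of the 6 fits that left out 1 library. In the KO with rescue it stood at -0.29 (SE 0.10, edgeR adjusted p = 0.065) against the KO and at 0.29 (SE 0.10, edgeR adjusted p = 0.057) against wild type, and neither passed. Both of these passed with total-count scaling, at -0.35 and 0.35. Against the KO it passed without the first rescue library (-0.37), and against wild type without the second rescue library (0.37) and with upper-quartile scaling (0.30). An exon of Gm16754 overlaps Keap1 on the opposite strand. The strand setting of the counting is not given in the sources used here, and Gm16754 had at most 78 counts in a library against at least 527 for Keap1.

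The ratio of the RPKM of Keap1 to that of Nfe2l2 needs no scaling between libraries, and was computed after their values were seen. It was 0.575 and 0.519 in the KO with rescue, 0.580 and 0.636 in the KO and 0.364 and 0.304 in wild type. The KO with rescue and the KO, at 0.547 ± 0.040 and 0.608 ± 0.039, both lay above wild type at 0.334 ± 0.042 (SD, n = 2 each).

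Of the 9 tested genes Gclc had the largest fold change in the KO against wild type and in the KO with rescue against the KO. Gclc and Gclm encode the catalytic and the modifier subunit of glutamate-cysteine ligase, the rate-limiting enzyme of glutathione synthesis. Gclc (ENSMUSG00000032350, chromosome 9, 77754535 to 77794485, plus strand) had 90.4 and 64.8 normalised CPM in the KO with rescue, 141 and 195 in the KO and 91.0 and 96.6 in wild type. Both KO libraries were above all 4 others, although they differed from each other more than the wild-type libraries did. Gclc rose 1.79-fold in the KO against wild type (log2 fold change 0.84, SE 0.16, edgeR adjusted p = 0.0013). It was lower in the KO with rescue than in the KO by 2.16-fold (log2 fold change -1.11, SE 0.16, edgeR adjusted p = 0.0027). Against wild type the KO with rescue gave -0.27 (SE 0.17, edgeR adjusted p = 0.27). Both calls held in each of the 6 fits that left out 1 library, with log2 fold changes from 0.59 to 1.04 and from -1.37 to -0.87. The comparison with wild type passed without the first rescue library (-0.54).

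Gclm (ENSMUSG00000028124, chromosome 3, 122245557 to 122269984, plus strand) had 84.8 and 68.3 normalised CPM in the KO with rescue, 100.2 and 120.5 in the KO and 85.0 and 90.7 in wild type. Its KO libraries were the highest, as for Gclc, but closer to wild type. It rose 1.25-fold in the KO (log2 fold change 0.32, SE 0.12, edgeR adjusted p = 0.039) and was 1.44-fold lower in the KO with rescue than in the KO (log2 fold change -0.52, SE 0.12, edgeR adjusted p = 0.016). Against wild type the KO with rescue gave -0.20 (SE 0.12, edgeR adjusted p = 0.27), which passed without the first rescue library (-0.37). The rise in the KO was not called by DESeq2 (0.31), with a replicate block (0.33), or without the first wild-type (0.28), the second wild-type (0.37) or the second KO library (0.19). The fall in the KO with rescue against the KO was not called without the second KO (-0.39) or the second rescue library (-0.38). Exons of Gm6061 and Gm17494 overlap Gclm, and they had at most 0 and 14 counts in a library.

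The ratio of Gclc to Gclm in RPKM, also computed after the values were seen, was 1.73 and 1.53 in the KO with rescue, 2.28 and 2.62 in the KO and 1.73 and 1.72 in wild type. Both KO libraries had a higher ratio than the other 4.

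**Figure D2:**
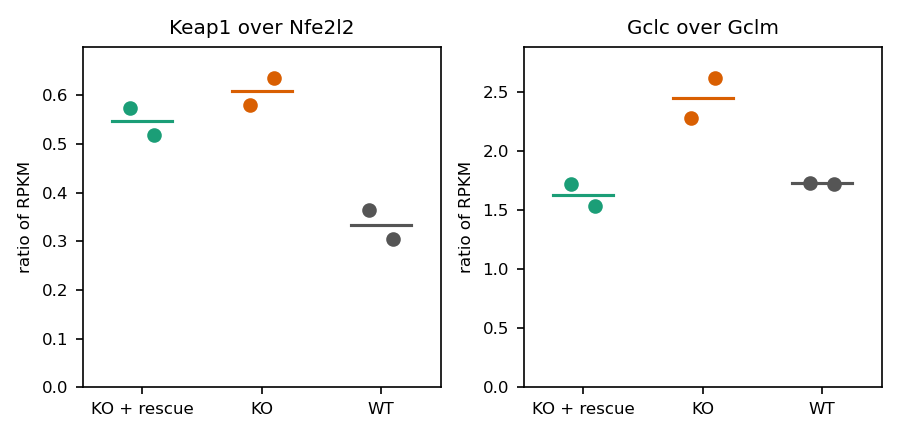
Ratios of RPKM within each library (points) and group means (bars) for Keap1 over Nfe2l2 (left) and Gclc over Gclm (right), with y axes from 0. For Keap1 over Nfe2l2 the KO with rescue and the KO lie above wild type, and for Gclc over Gclm the KO alone stands above the rest.

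Gsr encodes glutathione reductase, which returns oxidised glutathione to its reduced form with NADPH. It had 208 and 199 normalised CPM in the KO with rescue, 219 and 232 in the KO and 211 and 221 in wild type. The KO and wild-type libraries overlapped, and the log2 fold change between them was 0.06 (SE 0.08, edgeR adjusted p = 0.55). The KO with rescue gave -0.15 (SE 0.08, edgeR adjusted p = 0.23) against the KO and -0.09 (SE 0.08, edgeR adjusted p = 0.47) against wild type. It was not called in any of the 15 other fits of any comparison.

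Gpx4 encodes the selenium-containing peroxidase that reduces lipid hydroperoxides in membranes and restrains ferroptosis. It had 45.6 and 39.4 normalised CPM in the KO with rescue, 43.1 and 46.1 in the KO and 41.8 and 45.7 in wild type. The libraries of all 3 groups overlapped. The log2 fold changes were 0.02 (SE 0.10) for the KO against wild type, -0.07 (SE 0.11) for the KO with rescue against the KO and -0.05 (SE 0.11) for the KO with rescue against wild type. Their edgeR adjusted p values were 0.88, 0.71 and 0.80, and the sign of each changed when a single library was left out.

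Txnrd1 encodes the cytosolic thioredoxin reductase, also a selenoprotein, which keeps thioredoxin reduced. It had 189 and 170.3 normalised CPM in the KO with rescue, 206 and 197 in the KO and 160.5 and 162 in wild type (ENSMUSG00000020250, chromosome 10, 82859206 to 82897724, plus strand). The groups did not overlap, and the KO with rescue lay between the KO and wild type. Txnrd1 rose 1.25-fold in the KO against wild type (log2 fold change 0.32, SE 0.08, edgeR adjusted p = 0.0083). The KO with rescue gave -0.17 (SE 0.08, edgeR adjusted p = 0.20) against the KO and 0.15 (SE 0.08, edgeR adjusted p = 0.23) against wild type. The rise was not called without the first wild-type (0.31), the second wild-type (0.33) or the first KO library (0.27).

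Srxn1 encodes sulfiredoxin, which repairs peroxiredoxins that peroxide has over-oxidised. It had 48.5 and 44.8 normalised CPM in the KO with rescue, 50.3 and 52.9 in the KO and 44.8 and 44.9 in wild type. Both KO libraries were above both wild-type libraries, but the log2 fold change of 0.20 (SE 0.09) did not pass (edgeR adjusted p = 0.096). It passed with total-count scaling (0.33). The KO with rescue gave -0.14 (SE 0.09, edgeR adjusted p = 0.33) against the KO and 0.06 (SE 0.10, edgeR adjusted p = 0.71) against wild type, and the sign against wild type changed without the first rescue library.

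Hmox1 moved against Gclc and Gclm. It encodes haem oxygenase, which breaks down haem to biliverdin, carbon monoxide and iron (ENSMUSG00000005413, chromosome 8, 75093591 to 75100596, plus strand). It had 132 and 173 normalised CPM in the KO with rescue, 109 and 86.0 in the KO and 134 and 125 in wild type. Both KO libraries were below all 4 others, and the libraries of the KO with rescue overlapped wild type. Hmox1 fell in the KO against wild type by 0.40 on the log2 scale (SE 0.14, edgeR adjusted p = 0.030). It was 1.55-fold higher in the KO with rescue than in the KO (log2 fold change 0.63, SE 0.14, edgeR adjusted p = 0.013). Against wild type the KO with rescue gave 0.23 (SE 0.13, edgeR adjusted p = 0.25), which passed without the first rescue library (0.41). In each of the 3 groups, the library with the higher Hmox1 had the lower Gclc and the lower Gclm.

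The fall of Hmox1 in the KO was not called without the first wild-type (-0.36), the second wild-type (-0.45) or the second KO library (-0.24), or with total-count scaling (-0.27). Its rise in the KO with rescue over the KO was not called without the second KO library (0.47). Total-count scaling moved the median log2 fold change of all genes in the KO against wild type by 0.13, and relative to the median under that scaling Nfe2l2 was at -0.31 and Hmox1 at -0.41. With it 5 members were called higher and 0 lower, against 4 and 2 with TMM, and 4019 of all genes were higher and 2237 lower, against 2867 and 2905 with TMM. No member called with TMM changed sign under any of the 3 other scalings.

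Between the KO with rescue and the KO, 1 of the 9 tested members was higher, Hmox1, and 2 were lower, Gclc and Gclm. Of all genes tested 14.2% were called in this comparison, 8.35% higher and 5.88% lower. The libraries of 8 of the 9 did not overlap, 1 with the KO with rescue higher and 7 with it lower, against 59.4% of all genes, 29.3% higher and 30.1% lower. The median log2 fold change of the 9 genes was -0.15, against -0.0037 for all genes. Leaving out the second KO library left 0 members called higher and 1, Gclc, lower, and Gclc was also the single one lower without the second rescue library. Between the KO with rescue and wild type 0 members were called higher and 1 lower by edgeR, against 10.2% of all genes higher and 12% lower. At an unadjusted p under 0.05 edgeR had 1 higher, Keap1. The libraries of 6 of the 9 did not overlap, 2 with the KO with rescue higher and 4 with it lower, against 61.6% of all genes, 31.2% higher and 30.4% lower. DESeq2 gave the same counts of 0 and 1, and upper-quartile scaling gave 1 and 1. The median of the 9 was -0.046 there, against 0.010 for all genes. Without the first rescue library 1 member was called higher and 3 were lower, and 0 were lower without the second wild-type library.

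**Figure D3:**
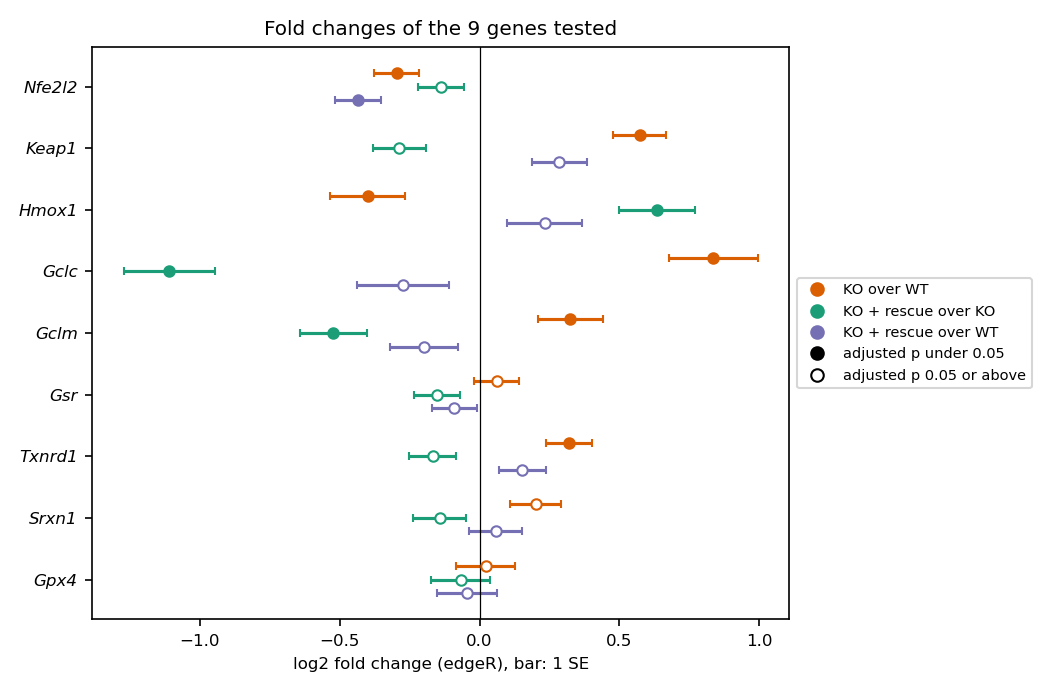
edgeR log2 fold changes (x axis) of the 9 tested genes in the 3 comparisons, each with a bar of 1 SE, where filled points passed at an adjusted p under 0.05. Gclc has the largest change in the KO over wild type (0.84) and in the KO with rescue over the KO (-1.11), and Hmox1 points the other way in both (-0.40 and 0.63).

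By Pearson's r over the 6 libraries in log2 normalised CPM, the genes with a pattern most like Nfe2l2 among 9921 ranked were Pgghg, Mtap, Cxcl16, Ralgapb and Twf1, with r from 0.992 to 0.996. These values describe 6 libraries in 3 groups, which share the group means, and were picked as the highest of all genes ranked.

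Other genes of the system were taken from 9 lists of 140 genes, of which 128 were tested. In the KO against wild type 33 were higher and 33 lower, or 51.6%, against the 46.8% of all genes given above, and the median log2 fold change was -0.02. The lists differed in direction. Haem and iron genes were called higher in 8 of 14 and lower in 0 (57.1% and 0%), with a median of 0.43. Glutathione supply and use genes were called higher in 4 of 24 and lower in 10 (16.7% and 41.7%), with a median of -0.22. Of all genes 23.2% were higher and 23.5% lower.

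The 8 haem and iron genes that rose in the KO were the ferritin subunit genes Fth1 and Ftl1, Slc40a1, Steap3, Fech, Aco1, Blvra and Blvrb, of which all but Slc40a1 and Steap3 were picked out after their values were seen. Slc40a1, the iron exporter ferroportin, had 25.6 and 17.9 normalised CPM in the KO with rescue, 47.0 and 55.9 in the KO and 19.7 and 20.1 in wild type. Its KO libraries stood apart from all 4 others (log2 fold change 1.37 against wild type, SE 0.15, edgeR adjusted p = 3.8e-05). Steap3, an endosomal iron reductase, had 30.1 and 36.3 in the KO with rescue, 43.5 and 44.2 in the KO and 19.4 and 20.4 in wild type (1.13 in the KO against wild type, SE 0.12, edgeR adjusted p = 2.6e-05). Fth1 averaged 682 in the KO with rescue, 1027 in the KO and 648 in wild type, and Ftl1 averaged 159.9, 234 and 143 in the same groups. In the KO with rescue against the KO 7 of the 14 were lower and 0 higher, with a median of -0.29, against 5.88% of all genes lower, 8.35% higher and a median of -0.0037. That count was 3 without the first KO library, 1 without the second, 4 without either wild-type library, 6 without the first rescue library and 5 without the second. In the KO against wild type it was 6 to 9 higher over the same fits, and without either rescue library 1 was lower. At an unadjusted p under 0.05 edgeR had 1 lower in the KO against wild type, Slc11a2, and 0 higher in the KO with rescue against the KO, and DESeq2 called 0 in both.

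In the glutathione list, Slc7a11, the cystine and glutamate exchanger that supplies cysteine for glutathione, had 34.1 and 43.7 normalised CPM in the KO with rescue, 35.0 and 18.3 in the KO and 96.3 and 104 in wild type. It fell in the KO while Gclc and Gclm rose (log2 fold change -1.88, SE 0.21, edgeR adjusted p = 3.8e-05), and it was also lower in the KO with rescue than in wild type (-1.37, SE 0.21, edgeR adjusted p = 7.5e-04). Abcc1, a pump that exports glutathione conjugates, had 217 and 295 in the KO with rescue, 169 and 148 in the KO and 373 and 349.6 in wild type (-1.19 in the KO against wild type, SE 0.13, edgeR adjusted p = 3.4e-05). Gpx7 and Gstp1 were listed at 0 counts in all libraries, and reads of Gstp1 may be lost to near-identical copies depending on how shared reads were counted. The list's higher count was 2 without the second KO or the first wild-type library, and total-count scaling gave 6 higher and 9 lower.

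Among 14 NRF2 partners and regulators 2 were higher and 5 lower in the KO (14.3% and 35.7%, against 23.2% and 23.5% of all genes). Maff, a small MAF partner of NRF2, had 101 and 143 normalised CPM in the KO with rescue, 81.7 and 65.8 in the KO and 208 and 190.4 in wild type (log2 fold change -1.43 in the KO against wild type, SE 0.15, edgeR adjusted p = 2.5e-05). Nfe2l3, a relative of NRF2, was low, at 1.52 and 2.39 in the KO with rescue, 1.17 and 1.60 in the KO and 7.94 and 6.34 in wild type (-2.38, SE 0.31, edgeR adjusted p = 1.0e-04). Bach1, Cul3 and Rbx1, looked at for their roles given above, did not pass in the KO against wild type, at -0.15, -0.13 and 0.07. The higher count was 1 without any 1 of the KO and wild-type libraries, and the lower count was 3 without the second KO or either wild-type library. Total-count scaling gave 3 higher and 4 lower.

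Thioredoxin and peroxiredoxin genes were higher in 1 and lower in 4 of 16 in the KO. These shares were 6.25% and 25%, against 23.2% and 23.5% of all genes. Prdx5, a peroxiredoxin, averaged 219.5 ± 22.4 normalised CPM in the KO with rescue, 145 ± 17.2 in the KO and 288 ± 16.6 in wild type (log2 fold change -0.99 in the KO against wild type, SE 0.10, edgeR adjusted p = 2.9e-05). Sesn3, a sestrin, averaged 26.8 ± 1.09, 25.8 ± 0.59 and 36.1 ± 3.45 in the same groups (-0.48, SE 0.11, edgeR adjusted p = 0.0043). The higher count was 0 without the second KO or the first wild-type library and 3 without either rescue library, and the lower count was 2 without the first wild-type library. Total-count scaling gave 3 higher and 3 lower, and upper-quartile scaling 2 and 4.

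NADPH supply genes were higher in 3 and lower in 3 of 12 (25% and 25%, against 23.2% and 23.5% of all genes). Me1, the cytosolic malic enzyme, averaged 87.0 ± 7.32 normalised CPM in the KO with rescue, 85.1 ± 7.09 in the KO and 188 ± 7.04 in wild type (log2 fold change -1.14 in the KO against wild type, SE 0.09, edgeR adjusted p = 5.1e-06). Pgd, a dehydrogenase of the pentose phosphate pathway, averaged 241 ± 20.8, 296 ± 1.26 and 206 ± 6.24 in the same groups (0.53, SE 0.09, edgeR adjusted p = 4.7e-04). The lower count was 1 without the second KO library.

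Of 5 superoxide and peroxide removal genes 2 were higher and 1 lower in the KO. These shares were 40% and 20%, against 23.2% and 23.5% of all genes. The extracellular Sod3 averaged 6.92 ± 2.62 normalised CPM in the KO with rescue, 9.32 ± 1.21 in the KO and 31.3 ± 1.22 in wild type (log2 fold change -1.74 in the KO against wild type, SE 0.18, edgeR adjusted p = 3.0e-05). The mitochondrial Sod2 averaged 41.6 ± 4.70, 52.3 ± 2.19 and 37.6 ± 2.55 in the same groups (0.48, SE 0.11, edgeR adjusted p = 0.0034). Without the second KO or the second wild-type library the higher count was 1, and it was 0 without the first wild-type library.

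Detoxification genes were higher in 6 and lower in 3 of 14 in the KO (42.9% and 21.4%, against 23.2% and 23.5% of all genes). Htatip2 averaged 13.3 ± 1.01 normalised CPM in the KO with rescue, 16.3 ± 2.04 in the KO and 8.09 ± 0.71 in wild type (log2 fold change 1.00, SE 0.17, edgeR adjusted p = 5.7e-04). Aldh2, the mitochondrial aldehyde dehydrogenase, averaged 371 ± 31.8, 327 ± 53.5 and 505 ± 29.2 in the same groups (-0.63, SE 0.11, edgeR adjusted p = 9.2e-04). The higher count was 3 without the first KO or the first wild-type library, and the lower count was 1 without either of these or the second wild-type library. Total-count scaling gave 6 higher and 1 lower.

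Lipid peroxidation genes were higher in 2 and lower in 5 of 11 (18.2% and 45.5%, against 23.2% and 23.5% of all genes). Acsl4, which places polyunsaturated fatty acids into membrane lipids and promotes ferroptosis, averaged 160 ± 22.8 normalised CPM in the KO with rescue, 131 ± 5.38 in the KO and 255 ± 0.35 in wild type (log2 fold change -0.96 in the KO against wild type, SE 0.10, edgeR adjusted p = 2.5e-05). Nox4, an oxidase that makes hydrogen peroxide, averaged 14.0 ± 0.25, 8.28 ± 0.74 and 2.92 ± 0.28 in the same groups (1.48, SE 0.21, edgeR adjusted p = 2.0e-04). Total-count scaling gave 4 higher and 5 lower.

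Selenocysteine genes and other selenoproteins were higher in 5 and lower in 2 of 18 in the KO. These shares were 27.8% and 11.1%, against 23.2% and 23.5% of all genes. Sephs2, which makes the selenium donor that both Gpx4 and Txnrd1 need for their selenocysteine, averaged 31.5 ± 6.34 normalised CPM in the KO with rescue, 49.8 ± 4.26 in the KO and 26.4 ± 4.01 in wild type (log2 fold change 0.91 in the KO against wild type, SE 0.14, edgeR adjusted p = 3.9e-04). Selenos, a selenoprotein of the endoplasmic reticulum, averaged 45.1 ± 4.40, 52.7 ± 1.98 and 34.6 ± 3.49 in the same groups (0.60, SE 0.11, edgeR adjusted p = 9.2e-04). The higher count was 3 without the second KO or either wild-type library and 9 without either rescue library, and the lower count was 1 without any 1 of the KO and wild-type libraries and 4 without the first rescue library. Total-count scaling gave 9 higher and 1 lower, and DESeq2's size factors 4 and 3.

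**Figure D4:**
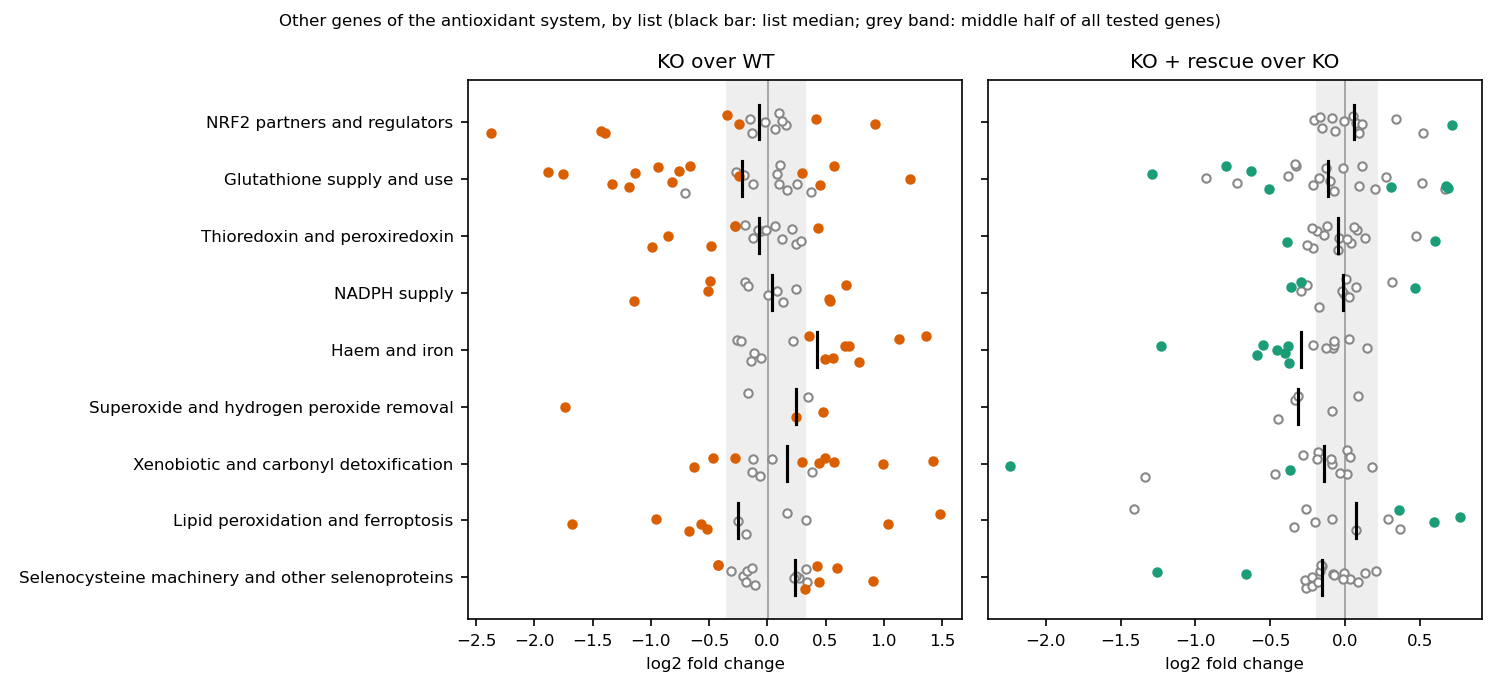
edgeR log2 fold changes (x axis) of the 128 tested genes of 9 lists, for the KO over wild type (left) and the KO with rescue over the KO (right), with filled points at an adjusted p under 0.05, black bars at list medians and a grey band over the interquartile range of all tested genes. The filled points of the haem and iron list lie to the right of 0 in the KO over wild type and to the left in the KO with rescue over the KO.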

How the data were processed

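RNA-seq was done on 6 libraries of mouse KP2 cells. Per the submitters' processing notes, reads went through tools listed as bcl2fastq, STAR (2.0.4b), Subread and featureCounts (1.45), with GRCm38 as the genome build; no source used here gives the strand setting or the annotation release. The deposited counts are read counts per gene. The authors' CPM is the count over the file's own total, and the authors' RPKM divides that CPM by the listed gene length; both were recomputed from the counts and matched. The counts were tested, and the RPKM served to compare genes and for ratios within a library. Libraries held 7605328 to 11505983 counts, and intervals cover counting error only.

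Symbols came from GENCODE M21 for 40254 of 41388 identifiers, and promoters from RefSeq. Genes were kept by filterByExpr (minimum count 10, minimum total 15), which left 12339. Counts were TMM-scaled and fitted with edgeR 4.0.16 in R 4.3.3 by the quasi-likelihood test, using every library and a mean for each group, which left 3 residual degrees of freedom. The groups shared an estimate of spread. Within each group, edgeR's common coefficient of variation was 10.5% in the KO with rescue, 6.08% in the KO and 5.07% in wild type. Benjamini-Hochberg adjustment ran over all genes tested. The SE is the fold change over the square root of F. The fit was also run on counts simulated from its own dispersions, with 200 of the 12339 genes changed. In the data 46.8% of genes were called in the KO against wild type, so that simulation cannot show how the fit performs there. Alternatives were other scalings and filters, DESeq2 1.42.0, a test against 1.5-fold, fits to the groups compared, a replicate block and leaving out each library; the list counts under them were added after seeing the data. Members and lists were chosen with earlier results of these data known. All members were named, and from each list up to 2 genes called in the KO against wild type with the smallest p. Other list genes in the text (Fth1, Ftl1, Fech, Aco1, Blvra, Blvrb, Slc11a2, Bach1, Cul3, Rbx1) were chosen after their values were seen. Protein sequences were not used here.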

Additional observations from a re-analysis of the deposited data

How the results depend on the processing

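Of the fold changes of single members refitted under alternatives, 360 kept their sign and side of the threshold, 29 lost the call, 9 gained one and 7 changed sign. Members called higher and lower numbered 4 and 2 in the KO against wild type, 1 and 2 in the KO with rescue against the KO, and 0 and 1 in the KO with rescue against wild type. Fitting only the KO and wild type also gave 4 and 2. In that fit Nfe2l2, Hmox1 and Gclm had edgeR adjusted p of 0.0021, 7.0e-04 and 0.0043, below those of the main fit. Against a 1.5-fold change all were 0, Gclc included (edgeR adjusted p = 0.14 in the KO against wild type and 0.11 in the KO with rescue against the KO). In the KO against wild type only Gclc had an estimate beyond 1.5-fold, at 1.79, with Keap1 next at 1.49. In the KO with rescue against the KO only Gclc and Hmox1 did, at 2.16-fold lower and 1.55-fold higher. No member did in the KO with rescue against wild type. Total-count scaling gave 0 lower in the KO against wild type, where it moved the median log2 fold change of all genes by 0.13. Relative to that median, Nfe2l2 was at -0.31 and Hmox1 at -0.41 with both TMM and total counts. In the KO with rescue against wild type both total-count and upper-quartile scaling gave 1 higher, Keap1. They moved the median there by 0.06 and 0.02, and Keap1 relative to it was at 0.28 with each, as with TMM. Why the scalings differed was not tested. Leaving out 1 library gave 2 to 4 higher and 0 to 2 lower in the KO against wild type, 0 to 1 and 1 to 3 in the KO with rescue against the KO, and 0 to 1 and 0 to 3 in the KO with rescue against wild type; a group's lone library was then assumed to vary like the others. Signs turned only for members not called: over these fits Gpx4 ranged from -0.039 to 0.092 in the KO against wild type, from -0.18 to 0.033 in the KO with rescue against the KO and from -0.16 to 0.055 in the KO with rescue against wild type, where total counts gave 0.014, and Srxn1 ranged from -0.0077 to 0.11 in the last.

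Over all genes, calls higher and lower numbered 2867 and 2905 in the KO against wild type, 1030 and 726 in the KO with rescue against the KO, and 1263 and 1481 in the KO with rescue against wild type. Leaving out 1 library gave 1686 (without the first wild-type library) to 3297 and 2005 to 3409, 139 and 64 to 1846 and 1594 (lowest without the second KO and highest without the first rescue library), and 417 and 691 to 1699 and 1953 (lowest without the first wild-type library). In the same order of comparisons, DESeq2 gave 2036 and 2346, 796 and 378, and 751 and 1086, the 1.5-fold test gave 479 and 927, 24 and 14, and 198 and 353, and total counts gave 4019 and 2237, 837 and 1186, and 1690 and 1212. Fitting only the groups compared gave 667 and 377 in the KO with rescue against the KO. Of the list counts refitted, 607 stayed within 1.5 times and 203 did not. Deviations of same-numbered libraries from their group means correlated over genes at r = -0.19 for the KO with rescue and the KO. They correlated at -0.15 for the KO with rescue and wild type, and at 0.04 for the KO and wild type. Whether same-numbered libraries share a batch is not given in the labels and was not tested. With the replicate block 3 and 2, 1 and 2, and 0 and 1 members were called, and 2572 and 2631, 765 and 429, and 941 and 1216 of all genes. Depth limits Nqo1, with 12 counts in all.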
